A study of Mus musculus with 9 samples.

Results

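The 4 Id genes of the mouse, Id1, Id2, Id3 and Id4, were described by the peaks of E2A and HEB called in their spans or within 50 kb of them. Of 79216 peaks in 6 deposited lists, 57 met this rule, 4 near Id1, 10 near Id2, 37 near Id3 and 6 near Id4. Chromatin immunoprecipitation and sequencing had been carried out with antisera to the C-termini of E2A and HEB, with an input library beside them, at each of 3 stages, 9 libraries in all. All cells were of the BALB/c strain, lacked Rag2, and came from fetal liver progenitors grown in culture, so none could rearrange a T cell receptor of its own. At day 7 of culture DN3 cells were taken by sorting for Thy1.2+ CD4- CD8- CD25+ CD44- cells. The other cells were DN3 cells that had taken up the KN6 gamma-delta T cell receptor from a virus marked by YFP, in the presence of IL7 and Flt3L, and had then been kept for 3 days on the stromal line OP9-DL1, which displays a Notch ligand. They were sorted as CD24+ CD73- cells, which by the labels had kept the potential for the alpha-beta fate, and as CD24+ CD73+ cells, which by the labels had committed to the gamma-delta fate. All 3 groups were labelled as cultured on that stromal line, and the receptor, the virus, the added culture time and the later sort cannot be told apart as sources of a difference from DN3 cells.

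Id proteins are helix-loop-helix proteins without the basic region that touches DNA. They pair with E proteins such as E2A, encoded by Tcf3, and HEB, encoded by Tcf12, and the pair cannot bind DNA. In thymocytes Id3 is known as a gene induced by T cell receptor signals through Egr factors, and Id2 as a gene of innate lymphoid and effector cells. Id1 and Id4 are best known outside the lymphoid lineages. Peaks of E2A and HEB near these genes are therefore positions of the inhibited factors beside the genes of their inhibitors.

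The duplicates of each library were joined by the submitters before peaks were called, so each factor and stage has 1 list and no value below has a replicate error or a test. The deposited score of a peak is the authors' -10 log10 of its MACS p-value. It starts at 50, it ranks peaks within a list, and it is not compared between lists, whose lengths run from 9407 to 23205 peaks on the main chromosomes. A peak scoring at least 100 is called strong here. This cut was met by 5011 of 12357 DN3 E2A peaks and by 1629 of 23205 CD73+ E2A peaks. Counts of strong peaks pooled over lists therefore depend on the list. The CD73+ list labelled HEB overlapped 27.9% of all DN3 E2A peaks and 27.2% of all DN3 HEB peaks. Of the DN3 E2A peaks, the CD73+ list labelled E2A overlapped 9.27% and the CD73- E2A list 13.0%. These overlaps do not settle the factor labels of the CD73+ lists, which were not tested. Each CD73+ value below rests on those labels. Read depth is not given in the lists, so a gene without a called peak is not shown to lack the factor. A peak list also cannot tell a site bound in fewer cells from one bound more weakly, and it holds no measure of expression, so neither the cell labels nor the levels of the Id genes were checked.

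The promoters of Id2 and Id3 are shown because these are the members with peaks inside the gene, none of which reached the promoter window. Each sequence is the stretch of 250 bases before the start site, read 5′ to 3′ on the strand of the gene, from RefSeq in build GRCm38.p6, which is mm10. Capitals mark every match to CANNTG, the E-box, which reads the same on both strands. Of the 4 genes 3 had an entry in the table used.
Id2, chr12:25096093-25096342, minus strand: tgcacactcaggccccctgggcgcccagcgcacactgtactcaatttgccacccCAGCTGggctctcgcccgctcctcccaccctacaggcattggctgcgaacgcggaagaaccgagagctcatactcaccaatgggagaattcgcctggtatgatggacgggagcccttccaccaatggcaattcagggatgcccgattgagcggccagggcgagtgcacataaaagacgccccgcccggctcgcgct
Id3, chr4:136143572-136143821, plus strand: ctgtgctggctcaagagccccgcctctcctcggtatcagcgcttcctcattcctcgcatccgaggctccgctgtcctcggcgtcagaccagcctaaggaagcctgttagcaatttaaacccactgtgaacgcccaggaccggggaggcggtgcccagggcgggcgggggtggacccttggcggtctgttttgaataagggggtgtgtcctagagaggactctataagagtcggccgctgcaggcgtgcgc
The Id2 promoter held 1 E-box, a CAGCTG that begins 196 bases before the start site. The windows of 300 bases around the Id3 and Id4 start sites held none, whereas 72.3% of 32851 such windows in the table held at least 1 CANNTG, and 16.3% held CAGCTG. None of the 6 lists had a peak in the windows of Id2, Id3 or Id4. The same held for all 12 windows in the table within 50 kb of the 4 genes, where 4.37% of all windows had a peak in any of the lists, so windows without a peak are the common kind. These matches describe letters and not binding.

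Counted by gene, 3 of the 4 Id genes had a DN3 E2A peak within 50 kb (Id1, Id2 and Id3), where 49.6% of 21887 protein-coding genes had one. The DN3 HEB list gave the same 3 genes, against 48.1% of genes. In CD73- cells Id3 and Id4 had an E2A peak (41.3% of genes), and Id2, Id3 and Id4 had a HEB peak (37.9%). In CD73+ cells Id2 and Id3 had an E2A peak (53.0%), and Id2, Id3 and Id4 had a HEB peak (41.8%). With 4 genes these counts lie near the background, and nothing about the family is read from them.

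**Figure D1:**
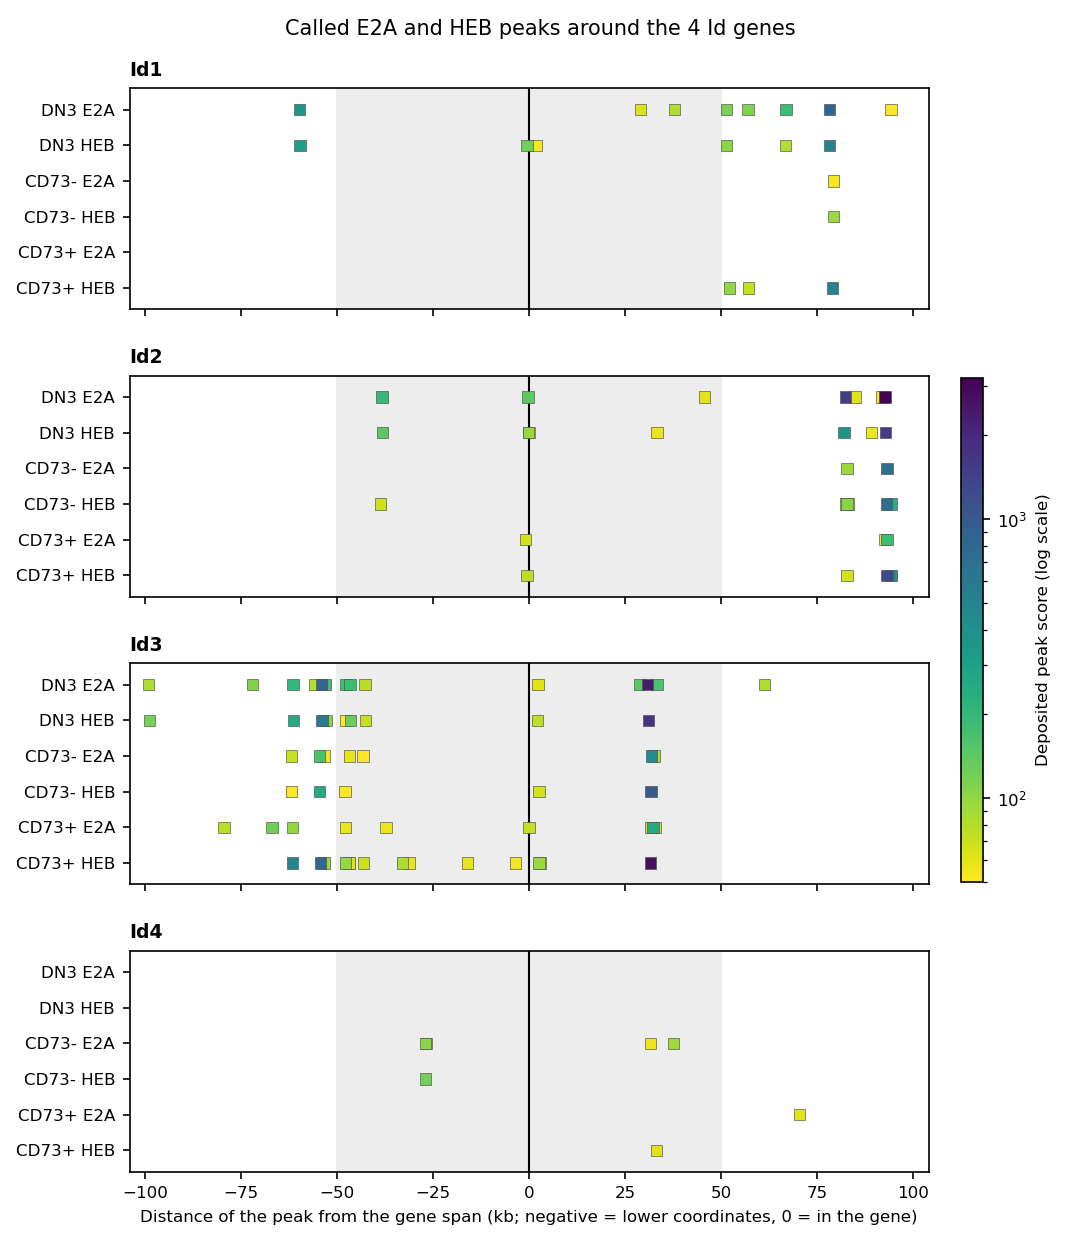
Position of each called peak relative to the gene span (x axis, kb) for the 6 lists (rows) at each Id gene (panels), coloured by the deposited score on a log scale, with the 50 kb window shaded. Id3 had peaks in all 6 lists on both sides, Id1 had peaks within the window in the DN3 lists, Id4 had none in the DN3 lists, and the highest peaks on the Id2 panel lay past the window.

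Strong peaks were held by fewer of the 4 genes in 4 lists and by the same genes in the DN3 HEB and CD73- E2A lists. In DN3 cells Id2 and Id3 had a strong E2A peak (27.5% of genes), and Id1, Id2 and Id3 a strong HEB peak (22.2%). In CD73- cells Id3 and Id4 had strong peaks of both factors, against 7.08% of genes for E2A and 9.08% for HEB. In CD73+ cells Id3 alone among the 4 had one, for E2A (9.11%) and for HEB (15.8%). Within 10 kb, the DN3 lists had E2A peaks at Id2 and Id3 (26.2%) and HEB peaks at Id1, Id2 and Id3 (24.3%). The CD73- lists had no E2A peak within 10 kb of any of the 4 (17.6%) and a HEB peak near Id3 (17.1%). Both CD73+ lists had peaks within 10 kb of Id2 and Id3, against 23.7% of genes for E2A and 20.2% for HEB.

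**Figure D2:**
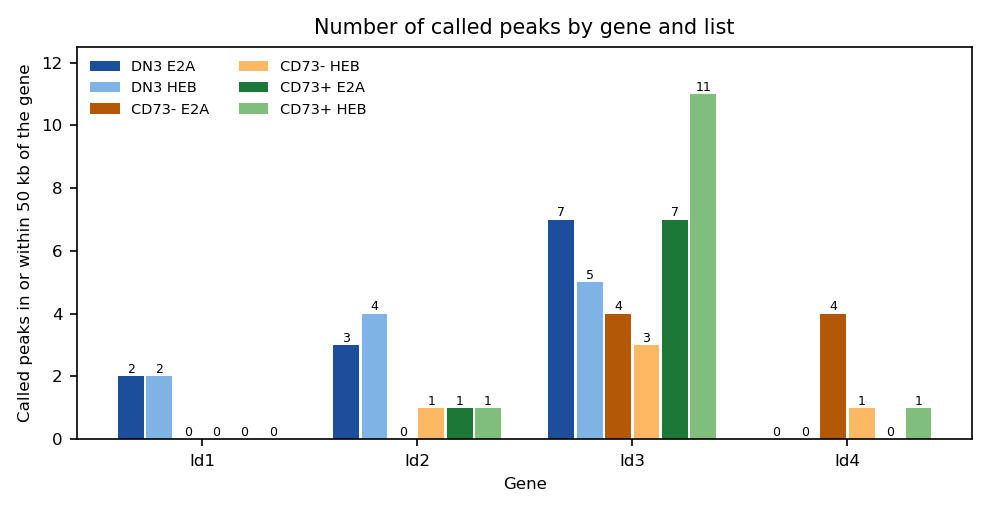
Number of called peaks in or within 50 kb of each Id gene (y axis) in each of the 6 lists (bars, from 0). Id3 had 3 to 11 peaks in every list, and the CD73+ HEB list gave the highest bar, at 11. Separate peaks of a list are counted apart also where a wider peak of another list joins them.

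Id3 had 7 peaks in the DN3 E2A list, 5 in the DN3 HEB list, 4 and 3 in the CD73- E2A and HEB lists, and 7 and 11 in the CD73+ E2A and HEB lists. Of all protein-coding genes, 0.407% had as many peaks as the 37 of Id3 over the 6 lists, where the median gene had 3. The list with the most was CD73+ HEB, in which 0.292% of genes reached 11 peaks. Once overlapping peaks of all lists were merged, these 11 stood in 9 regions, and the 7 CD73+ E2A peaks in 4. Of the 11, 1 was strong. Genes that lie close together share peaks in this count, and E2f2, which encodes a cell cycle transcription factor, begins 26.9 kb from Id3. Of the 37 peaks, 15 had Id3 as the nearest protein-coding gene, 12 had E2f2, and 10 had Rpl11, a ribosomal protein gene. None of the 15 nearest Id3 was strong. All 11 strong peaks in the window were nearest E2f2 (8) or Rpl11 (3). The 3 given to Rpl11 were close to a tie. They lay 41874 to 43139 bp from Rpl11 and 46554 to 47685 bp from Id3.

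The highest peaks of the Id3 window stood in 1 region inside the span of E2f2, at chr4:136176159-136179418 and 30.8 kb from Id3. It was the 1 region of the window with a peak in all 6 lists, a pattern found in 1.04% of 58451 merged regions of the series. Its highest score was 2416 in the DN3 E2A list, which placed it 60 of 12357, and 1707 in the DN3 HEB list, placed 40 of 11619. In CD73- cells the E2A peak scored 432 (115 of 12434) and the HEB peak 966 (42 of 9407). In CD73+ cells the E2A peak scored 248 (212 of 23205) and the HEB peak 2721 (12 of 10194). In every list the peak was thus among the highest 1% of its own list. The CD73- and CD73+ peaks were narrower than the DN3 peaks, and the CD73+ E2A list broke the region into 4 peaks of 114 to 416 bp. The DN3 E2A list had a second peak of 168 in the region, and another of 147 stood nearer to Id3, at 28.7 kb.

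Next to Id3 itself, a region at chr4:136147541-136148544, 2149 bp past the 3′ end of the gene, had peaks in 4 lists. The scores there were 59.3 for E2A and 75.1 for HEB in DN3 cells, 66.0 for HEB in CD73- cells, and 94.3 and 73.7 for a pair of HEB peaks in CD73+ cells. No E2A peak was called in it in CD73- or CD73+ cells. All 4 scores that lead the lists there are under 100. Within the gene, 1 peak was called, in the CD73+ E2A list, with a score of 71.8 at chr4:136143938-136144116. Its nearer edge lay 116 bp downstream of the start site, and no other list had a peak there.

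On the other side of Id3, upstream of its start site, 3 regions with peaks in 4 or 5 lists lay between 42.6 and 47.7 kb away in a stretch without protein-coding genes. The farthest, at chr4:136095267-136096137, scored 175 for E2A and 51.5 for HEB in DN3 cells and 51.2 for HEB in CD73- cells. In CD73+ cells it scored 57.5 for E2A and 96.5 for HEB. The next, at chr4:136096460-136097268, scored 184 and 130 in DN3 cells, 58.4 for E2A in CD73- cells and 61.0 for HEB in CD73+ cells. The nearest, at chr4:136100286-136101259, scored 77.1 and 71.4 in DN3 cells, 51.5 for E2A in CD73- cells and 70.05 for HEB in CD73+ cells. In DN3 cells both factors were called in all 3. In CD73- cells the factor called was HEB in 1 of them and E2A in the other two.

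**Figure D3:**
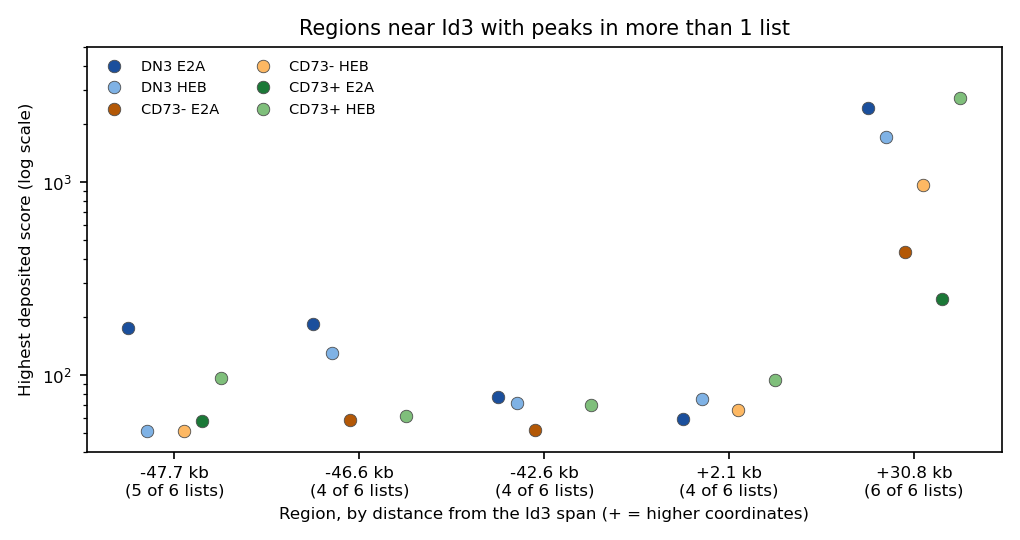
Highest deposited score (y axis, log scale) in each list (points) for the 5 regions near Id3 that held peaks in more than 1 list, placed by their distance from the gene. Scores rank peaks within a list and are not compared between lists, and within each list the region at 30.8 kb had the highest score of the 5.

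Between the upstream regions and the gene, CD73+ cells had called peaks that other lists lacked. The CD73+ HEB list had peaks at 32.9, 31.2, 16.1 and 3.6 kb from Id3, with scores of 85.2, 57.3, 57.7 and 52.8, and the CD73+ E2A list had 1 at 37.2 kb, with 55.6. The HEB peak at 3.6 kb lay in the span of Gm42329, a long noncoding RNA gene. With the E2A peak in the gene, these make 6 of the 12 Id3 regions, each seen in 1 list, and all 6 are without a DN3 peak. None of them was strong. Of 58451 merged regions in the series 82.3% were seen in a single list, so single-list regions are the common kind.

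Id2 had 10 peaks within 50 kb, in every list but CD73- E2A. Of all protein-coding genes 14.6% had as many. Its gene lies on the minus strand at chr12:25093799-25096092. A region at chr12:25092725-25093647, which begins 152 bp past the 3′ end of Id2, had peaks in 4 lists. It scored 141 for E2A and 96.25 for HEB in DN3 cells and 65.4 for E2A and 77.4 for HEB in CD73+ cells, and no CD73- peak was called there. The CD73+ E2A peak, 183 bp wide, did not overlap the CD73+ HEB peak, although both lay in the wider region that the DN3 peaks join. Within the gene there was 1 peak, of DN3 HEB, at 53.15.

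The highest scores of the Id2 window were 38.2 kb away in Kidins220, which encodes a membrane scaffold that is a substrate of protein kinase D. There the DN3 lists scored 196 for E2A and 144 for HEB, and the CD73- HEB list scored 68.7. On the upstream side of Id2, DN3 HEB had a peak of 57.8 at 33.3 kb, in the long noncoding RNA gene Gm17746, and DN3 E2A had 1 of 60.04 at 45.7 kb, in Gm36287. These 2 regions were each seen in 1 list. Of the 10 peaks, 7 had Id2 as the nearest protein-coding gene, and 1 of those was strong.

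Id1 had 4 peaks within 50 kb, all in DN3 cells, and 49.1% of protein-coding genes had as many over the 6 lists. Its gene lies at chr2:152736251-152737410. DN3 HEB had a peak of 123 at chr2:152734676-152735688, 563 bp from the gene, and another of 51.8 on the other side, 1759 bp away. DN3 E2A had no peak at either place. Its 2 peaks, 63.3 and 81.3, lay 29.0 and 37.8 kb away within Bcl2l1, a survival gene of the Bcl2 family. Thus none of the 4 Id1 regions was shared by 2 lists, and no CD73- or CD73+ peak was called in the window.

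Id4 was the member without a DN3 peak. Its gene lies at chr13:48261116-48266028. The CD73- lists had a region at chr13:48233853-48234313, 26.8 kb upstream of Id4 in the span of the long noncoding RNA genes A330033J07Rik and Gm36183, with 2 E2A peaks of 103 and 101 and a HEB peak of 124. The E2A peak of 103 placed 1023 of 12434 in its list and the HEB peak 986 of 9407. On the other side of Id4, CD73- E2A had peaks of 55.6 and 89.9 at 31.6 and 37.6 kb, and CD73+ HEB had 1 of 61.3 at 33.2 kb. All 6 Id4 peaks were 133 to 272 bp wide.

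Ranked within each list by its highest peak, Id3 stood first of the 4 genes in all 6 lists, an order that turns with how peaks are given to genes. With peaks nearest to the Id gene alone, Id2 led in DN3 E2A (141 against 77.1 for Id3), Id1 in DN3 HEB (123 against 75.1) and Id4 in both CD73- lists (103 against 51.5 for E2A, 124 against 66.0 for HEB), and Id3 led in the CD73+ lists. That rule leaves out DN3 peaks of 184 for E2A and 130 for HEB, which lay slightly nearer to Rpl11 than to Id3. Both exceed the leading scores named for their lists. Within 100 kb, Id2 led in DN3 E2A (3100 against 2416) and CD73- E2A (669 against 432), and Id3 in the other lists. Within 50 kb, the share of protein-coding genes with a lower highest peak within 50 kb, with 0 for a gene without a peak, was 98.6% to 99.9% for Id3. These values come from the region inside E2f2. The highest peaks nearest to Id3 scored 51.5 to 94.3 in the 6 lists. For Id2 the share was 83.8% for E2A and 84.2% for HEB in DN3 cells, 0 and 83.0% in the CD73- lists, and 68.4% and 79.6% in the CD73+ lists. For Id1 it was 68.0% and 82.0% in DN3 cells and 0 in the rest. For Id4 it was 93.3% and 92.8% in CD73- cells, 72.3% in the CD73+ HEB list and 0 elsewhere. The order of Id2, Id1 and Id4 thus differed between lists, and without replicates the distances between neighbours in it have no error.

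**Figure D4:**
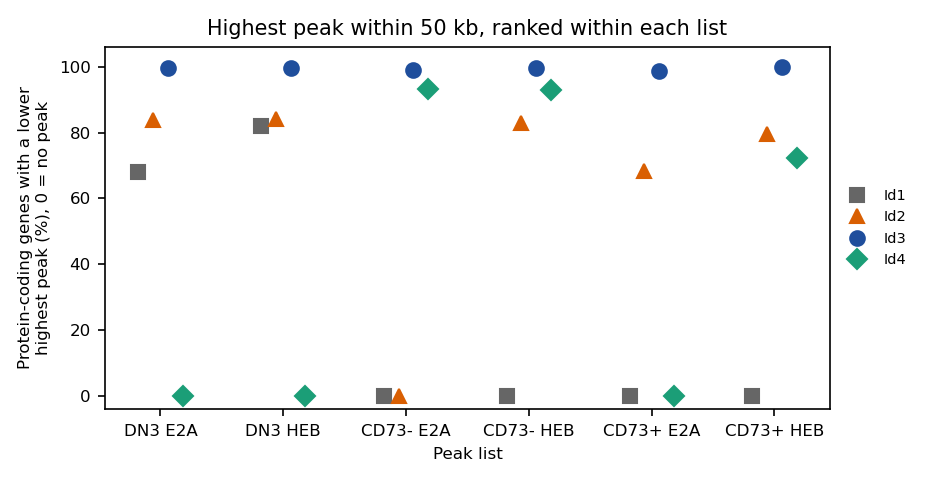
Share of 21887 protein-coding genes whose highest peak within 50 kb scored lower than that of each Id gene (y axis, percent, 0 where the gene had no peak) in each list (x axis). Id3 lay at 98.6% or above in every list, whereas Id4 was at 0 in both DN3 lists and above 90% in both CD73- lists.

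Merged where they overlap by at least 1 bp, the 57 peaks formed 25 regions, of which 8 had peaks in at least 2 lists. Over the series 17.7% of merged regions did. The 8 were 5 of 12 Id3 regions, 2 of 5 Id2 regions, 1 of 4 Id4 regions and 0 of 4 Id1 regions. E2A was called at all 3 stages in 1 region, that in E2f2, and HEB in 3, all in the Id3 window. When the 2 CD73+ lists swapped their labels, these counts became 3 and 2. Of the CD73+ E2A peaks 5 of 8 lay wholly inside a DN3 peak of either factor (8.73% of the whole list), 4 of them in the E2f2 region. Of the CD73+ HEB peaks 8 of 13 did (42.0% of the list). For CD73- cells this was 4 of 8 E2A peaks (18.9%) and 4 of 5 HEB peaks (31.3%). The CD73- and CD73+ lists have median peak widths of 149 to 181 bp, and the DN3 lists 617 and 721 bp.

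Within a stage, 7 of 11 DN3 HEB peaks overlapped a DN3 E2A peak, beside 46.0% of all DN3 HEB peaks. All 5 of Id3 did, 2 of 4 of Id2, and neither peak of Id1. In CD73- cells 2 of 5 HEB peaks did so (22.2% of all), 1 at Id4 and 1 in the E2f2 region. In CD73+ cells 2 of 13 did (14.8% of all), both in the Id3 window. At these sizes the counts are not set apart from the background.

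From DN3 cells onward, 3 of 12 E2A peaks overlapped a CD73- E2A peak (13.0% of all DN3 E2A peaks), all at Id3. A CD73+ E2A peak overlapped 3 of the 12 (9.27% of all), 2 at Id3 and 1 at Id2. A CD73+ HEB peak overlapped 6 of the 12 (27.9% of all), 5 at Id3 and 1 at Id2. For HEB, 4 of the 11 DN3 peaks met a peak of CD73- cells (19.4% of all) and 6 met a peak of CD73+ cells (27.2% of all). The 6 were all 5 of Id3 and 1 of Id2. In the other direction, 6 of 8 CD73+ E2A peaks overlapped a DN3 E2A peak (5.76% of all), but 4 of these 6 stood together in the E2f2 region. For CD73+ HEB this was 8 of 13 with a DN3 HEB peak (35.2% of all).

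At Id1 and Id2 the highest peaks within 100 kb stood past the 50 kb limit, whereas at Id3 and Id4 they stood inside it. The values past the limit are given because the rule leaves them out. Upstream of Id2, at chr12:25188712-25191725 and 92.6 kb from the gene, a region had peaks in all 6 lists. It scored 3100 in the DN3 E2A list, tied for place 2, and 1552 for DN3 HEB. Its CD73- scores were 669 for E2A and 739 for HEB, and its CD73+ scores were 186 and 1267. The highest DN3 E2A peaks near Cbfa2t3 and Lyl1 also scored 3100. The same value was the highest score of the CD73- HEB list and of both CD73+ lists, so it does not order the peaks that share it. Id2 was the nearest protein-coding gene, and the region crosses the noncoding genes Gm36287 and Gm36496. A second region, 82.0 kb from Id2, had peaks in 5 lists, led by 1536 for DN3 E2A. The start of Gm36496 lies within the first region, inside the DN3 peaks of both factors and a CD73+ HEB peak of 405. Its window of 300 bases, from RefSeq in the same build, is the only stretch of sequence at hand under peaks near an Id gene. It covers only part of the DN3 peaks. The CD73- peaks and the CD73+ peaks of 186 and 1267 lie outside it. The rest of the region was not searched for E-boxes. Capitals would mark CANNTG, of which this window holds none.
Gm36496, chr12:25190795-25191094, minus strand: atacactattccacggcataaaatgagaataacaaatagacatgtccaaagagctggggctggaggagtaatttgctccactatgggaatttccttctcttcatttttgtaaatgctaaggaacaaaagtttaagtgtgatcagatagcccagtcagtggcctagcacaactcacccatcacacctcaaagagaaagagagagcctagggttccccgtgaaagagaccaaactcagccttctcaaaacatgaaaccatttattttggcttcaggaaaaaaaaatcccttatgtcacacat
Of 733 promoter windows in the table under a DN3 E2A peak, 30.7% held CAGCTG and 82.5% held CANNTG.

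Upstream of Id3, just past the limit, a region 53.9 kb away at chr4:136088078-136089946 had peaks in 5 lists. It scored 847 for E2A and 589 for HEB in DN3 cells, 161 and 260 in CD73- cells, and 813 for HEB in CD73+ cells. Another, 61.3 kb away, had peaks in all 6 lists, from 51.1 in the CD73- HEB list to 466 in the CD73+ HEB list. The stretch between 42.6 and 61.3 kb upstream of Id3 thus held 6 regions with peaks in 4 or more lists. Near Id1 the highest peaks past the limit stood in Bcl2l1, 78.1 kb away, at 808 for DN3 E2A and 514 for DN3 HEB, with 488 for CD73+ HEB. The Bcl2l1 region at 78.1 kb had no CD73+ E2A peak and CD73- scores of 51.8 and 92.9. Another region in Bcl2l1, 51.3 kb from Id1 and so just past the limit, had peaks in 3 lists. Its scores were 116 for DN3 E2A, 102 for DN3 HEB and 98.96 for CD73+ HEB. Id4 had 1 more peak within 100 kb, of CD73+ E2A, at 60.1.

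Genes of E proteins and their partners, and genes that act upstream of Id genes, were described in the same window. It adds 50 kb to each side of the gene span, so longer genes have wider windows. The shares below are not adjusted for this and were not tested. Of 12 genes of E proteins and their partners, 5 had an E2A peak in DN3 cells (41.7%, beside 49.6% of all genes) and 10 had a HEB peak there (83.3%, beside 48.1%). In CD73- cells 5 had an E2A peak (41.7%, beside 41.3%) and 6 of the 12 a HEB peak (beside 37.9%). In CD73+ cells 7 had an E2A peak (58.3%, beside 53.0%) and 6 of the 12 a HEB peak (beside 41.8%). The median gene of the list had peaks in 3 lists, as did the median protein-coding gene. Cbfa2t3, a corepressor of the ETO family, had scores of 3100 and 2132 for E2A and HEB in DN3 cells, 399 and 961 in CD73- cells and 195 and 2260 in CD73+ cells. Tcf12, which encodes HEB itself, had peaks in all 6 lists, from 56.6 to 242. Lyl1, a helix-loop-helix partner of E proteins, had 3100 and 1541 in DN3 cells and no CD73+ E2A peak. Of 17 genes that act upstream of Id genes, among them Egr factors, Smad proteins and receptors of the TGF-beta and BMP families, 12 had an E2A peak in DN3 cells (70.6%, beside 49.6% of all genes) and 9 had a HEB peak there (52.9%, beside 48.1%). In CD73- cells 10 had an E2A peak (58.8%, beside 41.3%) and 9 a HEB peak (52.9%, beside 37.9%). In CD73+ cells 10 had an E2A peak (58.8%, beside 53.0%) and 11 a HEB peak (64.7%, beside 41.8%). The median gene of this list had peaks in 4 lists, beside 3 for the median protein-coding gene. Tgfbr2 and Tgfbr1, the TGF-beta receptor genes, and Smad3, which carries their signal, had peaks in all 6 lists, with DN3 E2A scores of 1983, 451 and 720.

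The genes most like each member were those with the smallest mean difference, over the 6 lists, in the percentile of the highest peak. For Id3 they were Cbfa2t3, at 0.22 percentage points, and Dad1 and Abhd4, both at 0.23, which are neighbours on chromosome 14 that share their highest peaks, with 3063 in the CD73+ HEB list. The Id3 percentiles, 98.6 to 99.9, come from the region inside E2f2. They lie near the upper end of the scale, where genes that are also near that end can differ only a little. For Id2 they were Tom1l2, at 1.28, and Tbc1d10c and Ppp1ca, both at 2.68 and with the same peaks. Tom1l2 had scores of 225 and 142 in DN3 cells, none for CD73- E2A and 63.6 for CD73- HEB, and 65.0 and 73.0 in CD73+ cells. For Id4 they were Gm5799, Galnt9 and Lrrtm3, at 3.08 to 3.87, each without a DN3 peak. Id4 was at 0 in both DN3 lists, and the measure counts this, so it favours genes without a DN3 peak. Id1 had peaks in 2 lists and was not compared. The measure rests on 6 lists and describes likeness of peaks alone.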

How the data were processed

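Bowtie, HOMER, MACS 1.4.2 and build mm10 are named in the submitters' processing notes, and per the labels duplicates were joined before peak calling. The deposited values are a score per peak, calculated by the authors in MACS as -10 log10 of a p-value. They were left unchanged and serve for ranks and filters inside 1 list. The settings of the aligner and caller are not given in the sources used here. No columns were left unmatched to a sample.

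BED starts were counted from 1. Peaks on 21 main chromosomes were assigned to a gene when they lay in its RefSeq span (GRCm38.p6) or within 50 kb, and merged where they overlap by at least 1 bp. The background is the share of 21887 protein-coding genes with a peak in the same window. Of 29 genes in 2 lists, 29 matched. The members, lists and rules were chosen with earlier results of these data known. Named genes are the 4 members, the 3 genes of each list with peaks in the most lists (ties by score), neighbours within 50 kb or nearest to a peak, and the 3 most alike genes over 1 Mb away for members with peaks in at least 3 lists. No test was made, since each group has 1 pooled list. Window assignment, overlap and merging were tested on simulated data. Alternatives were a score of at least 100, windows of 10 and 100 kb, equal list lengths, peaks over 3000 bp left out, 50% overlap of both peaks, midpoints within 200 bp and the CD73+ lists exchanged. Added after the data were seen were leaving out the CD73+ E2A list, peaks nearest the Id gene, and both windows for merged regions. The work was done in Python 3.11.15 with pandas 2.3.3, numpy 2.4.6, matplotlib 3.10.9 and scipy 1.17.1.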

Additional observations from a re-analysis of the deposited data

How the results depend on the processing

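No paired analysis was possible because each factor and stage has 1 pooled list and the labels number no replicates. Without replicates, a difference between lists has no error, and read depth is unknown. Leaving out peaks wider than 3000 bp kept the counts of peaks, genes and merged regions within 1.5 times their reported values. The background shares stayed within their 95% Wilson intervals, which serve here as a yardstick and measure no replicate error. The wide peaks left out included the DN3 HEB peak of the region inside E2f2, which is 3010 bp wide. That region then lacked a DN3 HEB peak. Id3 then had 36 peaks, and regions with HEB at all 3 stages went from 3 to 2. Joining midpoints within 200 bp was run for the 3 counts of merged regions, which stayed within 1.5 times.

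With strong peaks alone, the peaks near Id1, Id2, Id3 and Id4 numbered 1, 3, 11 and 3. The Id genes with a peak became 1 in the CD73+ E2A list and 1 in the CD73+ HEB list. The background shares were 27.5% and 22.2% for E2A and HEB in DN3 cells, 7.08% and 9.08% in CD73- cells, and 9.11% and 15.8% in CD73+ cells. Merged regions in 2 or more lists became 4, and 1 had HEB at all 3 stages.

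With a window of 10 kb the peaks near Id1, Id2, Id3 and Id4 numbered 2, 5, 7 and 0. The Id genes with a CD73- peak became 0 for E2A and 1 for HEB. The background shares were 26.2% and 24.3% in DN3 cells, 17.6% and 17.1% in CD73- cells, and 23.7% and 20.2% in CD73+ cells. Merged regions in 2 or more lists became 2, with 0 for E2A and 1 for HEB at all 3 stages. With a window of 100 kb the peaks near Id1, Id2 and Id3 numbered 19, 29 and 59. All 4 Id genes then had a peak in each of the CD73- E2A, CD73- HEB and CD73+ HEB lists. The background shares were 64.8% and 64.7% in DN3 cells, 59.9% and 55.8% in CD73- cells, and 72.6% and 58.8% in CD73+ cells. Merged regions in 2 or more lists became 19, with 3 for E2A and 8 for HEB at all 3 stages. The window sets how many peaks can be counted, so these shifts follow from its construction.

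With every list cut to the length of the shortest, 9407 peaks, background shares were 42.1% and 42.7% in DN3 cells, 34.2% for CD73- E2A, and 32.9% and 39.8% in CD73+ cells. The counts at the Id genes stayed within 1.5 times. Requiring 50% overlap of both peaks split regions, which gave 13 in 2 or more lists, with 0 for E2A and 1 for HEB at all 3 stages. With the CD73+ lists exchanged, 3 regions had E2A at all 3 stages. Without the CD73+ E2A list there were 0, by construction, and Id3 had 30 peaks. With peaks nearest to the Id gene alone, Id1 had 2 and Id3 had 15. Merged regions in 2 or more lists were then 4, with 0 for E2A and 1 for HEB at all 3 stages.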
